A study of Mus musculus with 45 samples.

Results

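The 10 genes described here carry the signal of insulin and the insulin-like growth factors (IGFs) from the cell surface to the nucleus, or act beside that route. They are the receptor genes Insr, Igf1r and Igf2r, the docking protein genes Irs1 and Irs2, the PI 3-kinase subunit gene Pik3r1, the kinase gene Akt2, the transcription factor genes Foxo1 and Foxo3, and Igf2bp2, which encodes a protein that binds IGF2 mRNA. They were taken by symbol from the 24918 entries of an RNA-seq count table, 1 entry per gene, and all 10 were among the 12961 entries that passed the filter on low counts. The symbols were selected on RNA-seq levels and differences of these same mice, so the values of the 10 genes are given as a description, with standard errors (SE) and without p-values.

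Insulin and the IGFs bind receptor tyrosine kinases, which phosphorylate docking proteins of the insulin receptor substrate (IRS) family. The docked PI 3-kinase makes a membrane lipid that recruits and activates Akt kinases, and Akt phosphorylates FoxO transcription factors, which then leave the nucleus. FoxO factors are known to activate Insr and Irs2 when insulin is low, so that the pathway feeds back on its own upper steps, and in the intestine IGFs are known to promote growth of the epithelium.

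The study compared the colonic epithelium of mice under 3 diets, to learn what obesity does to this cell layer and whether it remains after weight loss. All mice were males aged 6 weeks at the start, of strain C57BL/6 in the labels and C57BL/6J in the methods of the study. Control mice (LF) ate a 10% fat diet for 20 weeks and obese mice (HF) a 60% fat diet for 20 weeks, whereas formerly obese mice (HFLF) were fed the high-fat food during 15 weeks and switched to the low-fat food for a final 5. The epithelium of the whole colon was released with EDTA, so each library mixed cells of the proximal and distal colon, and RNA was sequenced from 5 mice per group. The libraries held 15230391 to 16718408 counts in control, 15591904 to 16749096 in obese and 16114562 to 22762095 in formerly obese mice.

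Epithelial markers summed to 13059 to 15431 CPM (counts scaled by library size, so that libraries of unequal depth compare) in every library, against 0.178 to 2.33 CPM for smooth muscle and 0 to 0.373 CPM for adipocyte markers, of which Plin1 and Lep were at 0 throughout. None of the 6 epithelial markers passed the call rule in any comparison. Of 6 colonocyte markers, 3 were higher in formerly obese than in control mice (Krt20, Car4 and Slc26a3) and 2 were higher than in obese mice (Car4 and Slc26a3). Their sum ranged over 5946 to 11836 CPM in control mice, 6856 to 11322 in obese mice and 9002 to 14491 in formerly obese mice. Of 6 small-intestine markers, 3 were tested, and 2 were higher in obese (Fabp6, Apob) and 2 in formerly obese (Apob, Sis) than in control mice. The sum of that list was 426 to 499.9 CPM in LF, 556 to 716 in HF and 464 to 713 in HFLF mice, and none of its genes was at 0 in all libraries. No goblet, stem, immune, fibroblast or endothelial marker was called in any comparison. Only 4 of 5 stem, 4 of 6 immune, 4 of 6 fibroblast and 1 of 4 endothelial markers were tested, however. The fibroblast sum was 2.34 to 10.9 CPM in LF, 6.78 to 17.4 in HF and 6.01 to 30.6 in HFLF mice. In the same order the immune sum was 13.6 to 25.6, 18.1 to 41.5 and 17.1 to 37.0 CPM. The endothelial sum was 4.82 to 6.38, 3.02 to 6.06 and 3.87 to 9.02 CPM. Of the enteroendocrine markers Pyy was called lower in formerly obese than in obese mice. The part of these shifts in the values below was not tested, and in such bulk samples fewer cells of a type and less RNA per cell cannot be told apart.

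A gene passed the call rule, which used the cutoffs of the study, when edgeR's quasi-likelihood test gave a fold over 1.2 either way with a p-value under 0.01 and, after Benjamini-Hochberg adjustment, under 0.25. In obese against control mice 1 of the 10 genes passed, where 1.58% of all tested genes did, and the 10 log2 folds had a median of -0.07 against 0.00 for all tested genes. In formerly obese against control mice 1 passed (3.72% of all tested genes, median log2 fold of the 10 genes 0.02), and in formerly obese against obese mice 2 passed (2.65% of all tested genes, median 0.08). The 3 comparisons come from 1 fit of the 3 groups, and any 2 of them share the libraries of 1 group. Their values are therefore set side by side and not related to each other. Most differences were small, as 8, 9 and 7 of the 10 log2 folds lay within 0.2 of 0 in the 3 comparisons, in the order given. The groups did not overlap for 0 of 10 genes in obese against control mice, where they did not overlap for 2.47% of all tested genes. The same count was 0 in formerly obese against control mice (3.62% of all tested genes) and 1 in formerly obese against obese mice (3.38%).

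**Figure D1:**
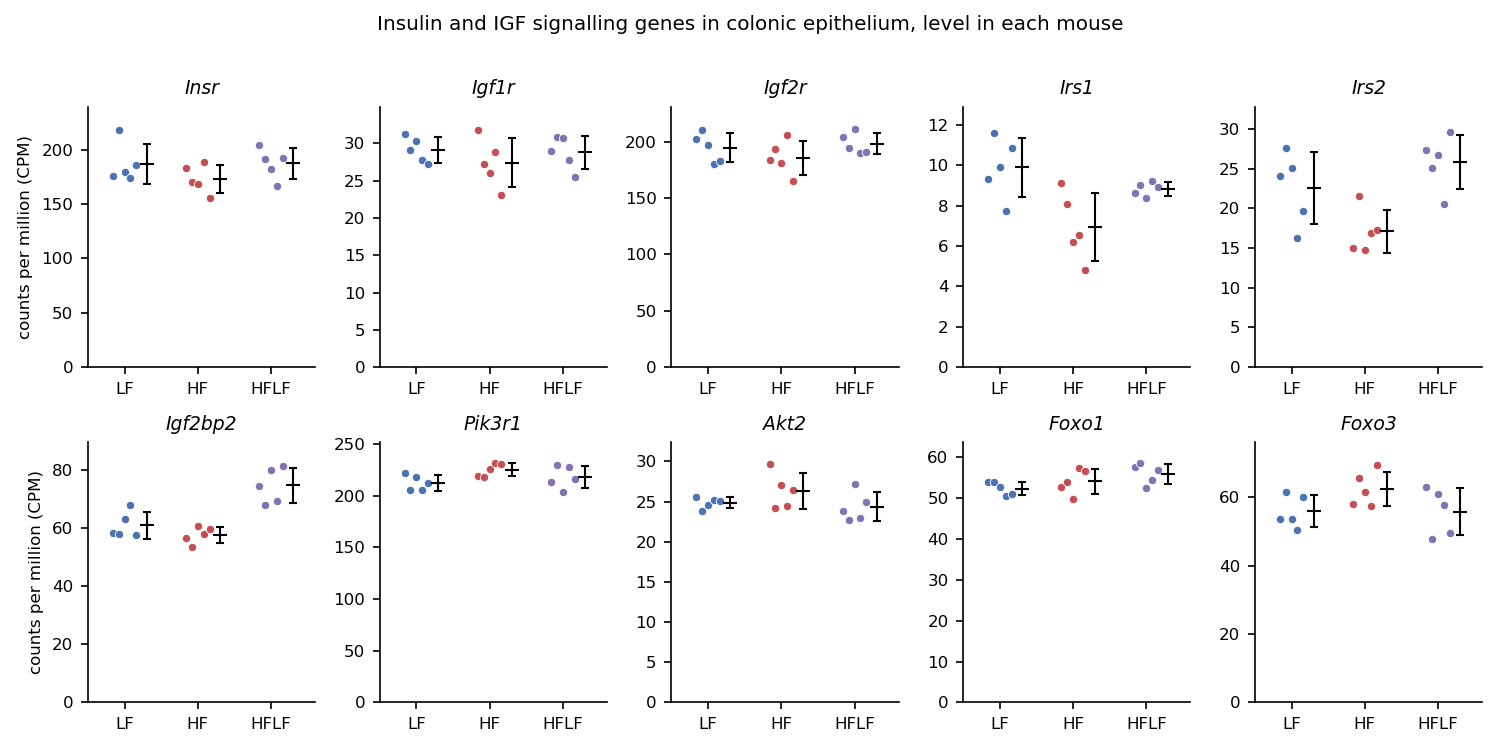
Level of each of the 10 genes in CPM (vertical axis, from 0) in the 5 mice of each diet group (points), with the mean and SD beside them. Irs1 and Irs2 had their lowest means in obese mice, and the 5 formerly obese mice lay above all obese mice for Igf2bp2, while the groups of Insr, Igf1r, Igf2r, Pik3r1, Akt2, Foxo1 and Foxo3 ran into each other.

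Irs1 and Irs2 encode the docking proteins that link the receptors to PI 3-kinase, and they were the 2 genes with the widest spread among the 10. The level of Irs1 (chr1:82233105-82291439, minus strand) in control mice was 9.34, 11.6, 9.92, 7.76 and 10.9 CPM. In obese mice it was 9.12, 8.07, 6.19, 6.55 and 4.80 CPM. In formerly obese mice it was 8.62, 9.03, 8.37, 9.21 and 8.93 CPM. The obese mice were the lowest as a group, but the 2 obese mice at 9.12 and 8.07 CPM lay above the lowest control mouse. The formerly obese mice stood closer together than either other group. Their coefficient of variation was 3.80%, against 14.9% in control and 24.2% in obese mice. Counting error alone is wider than 3.80% at 80 to 188 counts per library, so the closeness is not read as a group trait. Irs1 was lower in obese than in control mice by a log2 fold of -0.51 (SE 0.14; means 6.95 and 9.90 CPM), and this was the 1 difference from control mice that passed the call rule in obese mice. It no longer passed when obese replicate 3, 4 or 5 or control replicate 2 or 5 was left out (log2 fold -0.40 to -0.49). Against obese mice, the formerly obese mice were higher by 0.35 (SE 0.14), which did not pass, and against control mice they differed by -0.16 (SE 0.14). Irs1 rested on 80 to 188 counts per library, the fewest of the 10 genes.

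Irs2 (chr8:10986964-11008430, minus strand) stood at 24.0, 27.6, 25.1, 16.3 and 19.7 CPM in control mice. In obese mice it stood at 15.0, 21.6, 14.8, 16.9 and 17.2 CPM. In formerly obese mice it stood at 27.3, 25.1, 26.7, 20.5 and 29.6 CPM. The obese and formerly obese mice were nearly separate, since only the obese mouse at 21.6 CPM lay above the lowest formerly obese mouse. Irs2 was higher in formerly obese than in obese mice by a log2 fold of 0.59 (SE 0.14; means 25.8 and 17.1 CPM), which passed the call rule. That was the widest difference of the 10 genes in any comparison. It passed also when each of the 15 libraries was left out in turn (log2 fold 0.54 to 0.69), though not at an adjusted p under 0.05. Such fits reuse the libraries on which the gene was selected, so they are no independent support. With the GC trend of the libraries removed the log2 fold of Irs2 between formerly obese and obese mice was 0.78. Irs2 lies at the 99.3 percentile of GC content, where the fitted trend rests on few genes. In this setting 234 of all tested genes were called in that comparison, in place of 343. Obese mice were lower than control mice by -0.40 (SE 0.14), which did not pass, and formerly obese mice were higher than control mice by 0.20 (SE 0.13). The difference between obese and control mice passed in 2 of the 15 fits with a library left out and in 4 of 10 other settings. Colonocyte markers were also higher in formerly obese than in obese mice (2 of 6 called, with the sums given above), and their part in the Irs2 difference was not tested. An entry on the opposite strand, 9530052E02Rik, overlaps Irs2 and held 0 to 6 counts per library, against 239 to 601 for Irs2. How reads from the shared stretch were counted is not known.

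The stretches just upstream of both docking protein genes are shown because the 2 genes had the widest ranges and because FoxO factors and E-box-binding factors are known to act on Irs2. Each line gives the 250 bases before the gene start, from RefSeq on GRCm38.p6, 5′ to 3′ on the minus strand, with CACGTG (an E-box) and TGTTTTG (letters of an insulin response element) in capitals.
Irs1, chr1:82291440-82291689: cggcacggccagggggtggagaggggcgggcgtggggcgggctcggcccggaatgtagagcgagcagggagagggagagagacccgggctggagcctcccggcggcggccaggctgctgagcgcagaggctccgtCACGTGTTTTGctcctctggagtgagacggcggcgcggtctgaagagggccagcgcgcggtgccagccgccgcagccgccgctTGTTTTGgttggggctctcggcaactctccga
Irs2, chr8:11008930-11009179: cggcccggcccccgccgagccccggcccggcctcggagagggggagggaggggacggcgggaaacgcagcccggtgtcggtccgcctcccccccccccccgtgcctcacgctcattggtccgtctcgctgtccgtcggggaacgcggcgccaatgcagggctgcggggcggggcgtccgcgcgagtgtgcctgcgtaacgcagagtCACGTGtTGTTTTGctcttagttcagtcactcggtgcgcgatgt
In Irs1 the E-box began 115 bases before the gene start and shared 2 bases with the TGTTTTG that began at 111, and another TGTTTTG began at 32. In Irs2 the E-box began 44 bases before the start and TGTTTTG at 37, with 0 shared bases. The motifs were chosen after these sequences had been read, and the search took both strands of the windows from 250 bases before to 50 bases after each start. CACGTG lay in 7.15% of 32851 mouse promoters, TGTTTTG in 6.28% and both in 0.408%. Of the 13 entries for 9 of the 10 genes, 3 held CACGTG (Irs1, Irs2 and Igf2r) and 2 held TGTTTTG. The other FoxO motif searched, TGTTTAC, lay in 3.65% of promoters and in none of the 13. The upstream stretches held 28 CpGs in Irs1 and 34 in Irs2.

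Igf2bp2 encodes an RNA-binding protein that takes its name from IGF2 mRNA, and it was the gene of the 10 with the clearest separation. Igf2bp2 (chr16:22059009-22163299, minus strand) stood at 58.1, 57.8, 63.1, 68.0 and 57.5 CPM in control mice. The obese mice had 56.4, 53.5, 60.5, 57.8 and 59.7 CPM. The formerly obese mice had 74.5, 67.9, 79.9, 69.3 and 81.4 CPM. All 5 formerly obese mice lay above all 5 obese mice, and only control replicate 4, at 68.0 CPM, reached the lowest formerly obese mouse, at 67.9 CPM. The log2 fold was 0.37 (SE 0.06) against obese mice and 0.29 (SE 0.06) against control mice, and both passed the call rule, while obese and control mice differed by -0.08 (SE 0.06). The difference from control mice no longer passed without formerly obese replicate 5 (log2 fold 0.26). The difference from obese mice passed in all 15 fits with a library left out and in 10 of 10 other settings. These fits reuse the libraries on which the gene was selected, so they are no independent support. Krt20, Car4 and Slc26a3, of the 6 colonocyte markers, were called higher in the same mice against control mice, and their part was not tested.

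The 3 receptor genes did not pass the call rule in any comparison or alternative fit. Insr encodes the insulin receptor and Igf1r the receptor for IGF1. Igf2r encodes a scavenger that removes IGF2 and also sorts lysosomal enzymes. Insr (chr8:3150922-3279617, minus strand) stood at 176, 218, 179, 174 and 185 CPM in control mice. It stood at 183, 169.98, 168, 189 and 155 CPM in obese mice. In formerly obese mice it stood at 205, 191, 182, 166 and 192 CPM. The ranges of the 3 groups overlapped, and the control mouse at 218 CPM stood above all other mice. The log2 folds of Insr were -0.11 (SE 0.07) in obese and 0.01 (SE 0.07) in formerly obese mice, each against control mice, and 0.12 (SE 0.07) between formerly obese and obese mice.

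Igf1r (chr7:67952257-68233667, plus strand) ranged over 27.2 to 31.2 CPM in control mice, with a median of 29.1. The range was 23.0 to 31.8 CPM in obese mice and 25.5 to 30.9 CPM in formerly obese mice, so that the groups overlapped almost fully. Its log2 folds were -0.09 (SE 0.08) and -0.02 (SE 0.08) against control mice, for obese and formerly obese mice, and 0.07 (SE 0.08) between the 2 diet groups that had eaten high fat. Igf2r (chr17:12682406-12769706, minus strand) ranged over 181 to 210.2 CPM in LF, 165 to 205 CPM in HF and 190.1 to 211 CPM in HFLF mice, with log2 folds of -0.07 and 0.03 against control mice and 0.09 between formerly obese and obese mice (SE 0.06 each). Airn, an antisense RNA, overlaps Igf2r on the opposite strand and held 49 to 96 counts per library, against 2747 to 4748 for Igf2r. The strand setting of the counting was not given in the sources used here, so how reads from the shared stretch were counted is not known. In all 3 receptor genes the obese mean was the lowest of the 3 groups, and obese replicate 5 was the lowest obese mouse. Without that mouse the log2 folds of Insr, Igf1r and Igf2r in obese against control mice were -0.07, -0.03 and -0.03.

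Pik3r1 encodes the regulatory subunit of PI 3-kinase that docks on IRS proteins and steadies the catalytic subunit. Pik3r1 (chr13:101680761-101768217, minus strand) ranged over 205 to 222 CPM in LF, 218 to 232 CPM in HF and 204 to 229.5 CPM in HFLF mice. It had the smallest spread of the 10 genes, with a within-group SD of 0.06 on the log2 scale, under that of all but 3.70% of the tested genes. The obese mice were at the upper end, yet the log2 fold was only 0.08 (SE 0.04) against control mice, and it was 0.04 (SE 0.04) in formerly obese against control and -0.05 (SE 0.04) in formerly obese against obese mice.

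Akt2 encodes the Akt kinase best known for the response of fat and muscle to insulin. Akt2 (chr7:27591560-27639453, plus strand) ranged over 23.8 to 25.5 CPM in LF, 24.1 to 29.6 CPM in HF and 22.7 to 27.1 CPM in HFLF mice. The 3 ranges overlapped, and the log2 folds were 0.08 and -0.03 against control mice and -0.11 between formerly obese and obese mice (SE 0.07, 0.07 and 0.06).

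The FoxO genes encode the transcription factors that Akt keeps out of the nucleus. Foxo1 (chr3:52268337-52350109, plus strand) ranged over 50.4 to 53.9 CPM in LF, 49.9 to 57.4 CPM in HF and 52.4 to 58.5 CPM in HFLF mice. Foxo3 (chr10:42185786-42276742, minus strand) stood at 53.8, 61.6, 53.8, 50.6 and 60.2 CPM in control mice. In obese mice Foxo3 stood at 58.1, 65.8, 61.5, 57.5 and 69.4 CPM, and in formerly obese mice at 63.1, 47.8, 61.0, 57.8 and 49.6 CPM. Foxo3 had its highest mean in obese mice and Foxo1 in formerly obese mice, with overlap in each case. The log2 folds of Foxo1 were 0.05, 0.10 and 0.05 (SE 0.05 each) and those of Foxo3 were 0.16, 0.00 and -0.16 (SE 0.08 each), for obese against control, formerly obese against control and formerly obese against obese mice. None passed the call rule, in any alternative fit either. Over the 10 other settings the log2 fold of Foxo3 between formerly obese and obese mice ranged from -0.17 to -0.04.

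**Figure D2:**
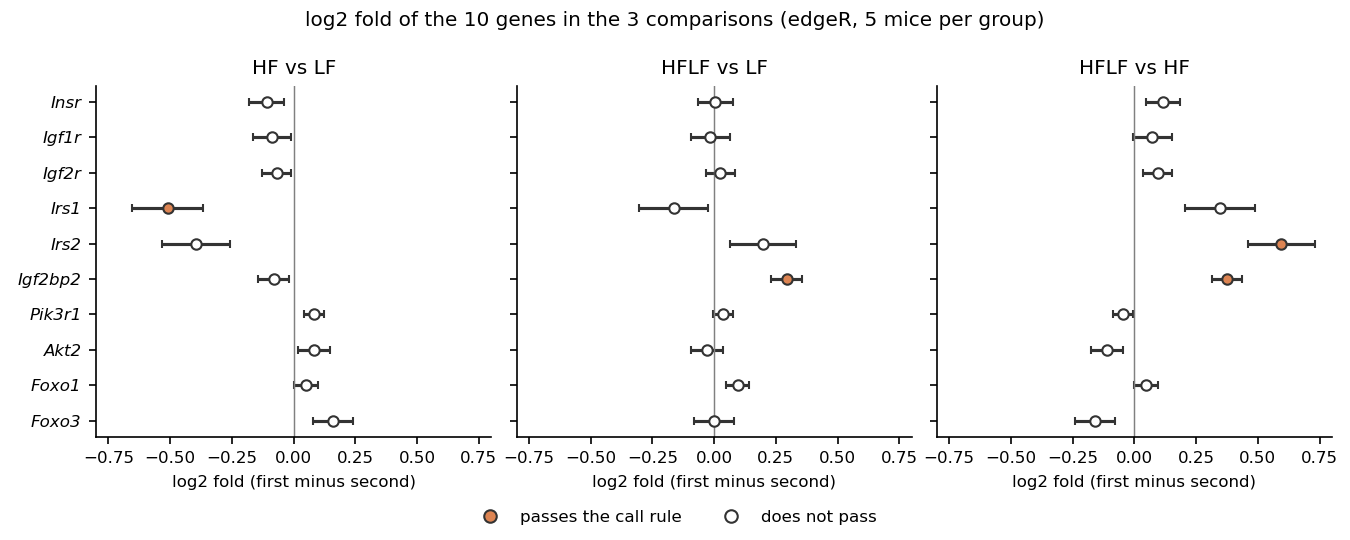
Log2 fold of each gene (horizontal axis, first group minus second) in the 3 comparisons, with bars for the SE from the edgeR fit of all 15 libraries and filled points for genes past the call rule. Irs1 at -0.51 in obese against control mice, Igf2bp2 at 0.29 in formerly obese against control mice, and Irs2 at 0.59 and Igf2bp2 at 0.37 in formerly obese against obese mice are filled, and the rest lie closer to 0 or have wider bars.

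Levels were compared between genes per kb of exon, with the RefSeq exon bases that lie inside the span of the gene in the count table. Pik3r1 was the highest at a mean of 29.7 CPM per kb over the 15 mice, and Irs1 the lowest at 0.934. Between them lay Igf2r at 21.6, Foxo3 at 20.4, Insr at 19.4, Igf2bp2 at 16.5, Foxo1 at 9.76, Akt2 at 6.63, Irs2 at 5.44 and Igf1r at 2.37 CPM per kb. In terms of all tested genes, Pik3r1 stood at the 78.2 percentile and Irs1 at the 12.7 percentile of the level per kb. Neighbours in the order that ran into each other were Igf2r and Foxo3 (Igf2r higher in 11 of 15 mice), Foxo3 and Insr (10 of 15), Insr and Igf2bp2 (12 of 15) and Akt2 and Irs2 (11 of 15). The other neighbours kept their order in 15 of 15 mice without overlap. For 3 genes the current RefSeq exons reach past the span in the count table, by 2782 bases in Irs2, 1381 in Akt2 and 3941 in Foxo3, and with all those bases their levels would be 3.21, 4.86 and 8.56 CPM per kb. With that length Foxo3 would move from the third place to the sixth, just below Foxo1, and the means of the other genes would keep their order. The counts of mice that kept an order, and the absence of overlap, are for lengths inside the spans only.

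**Figure D3:**
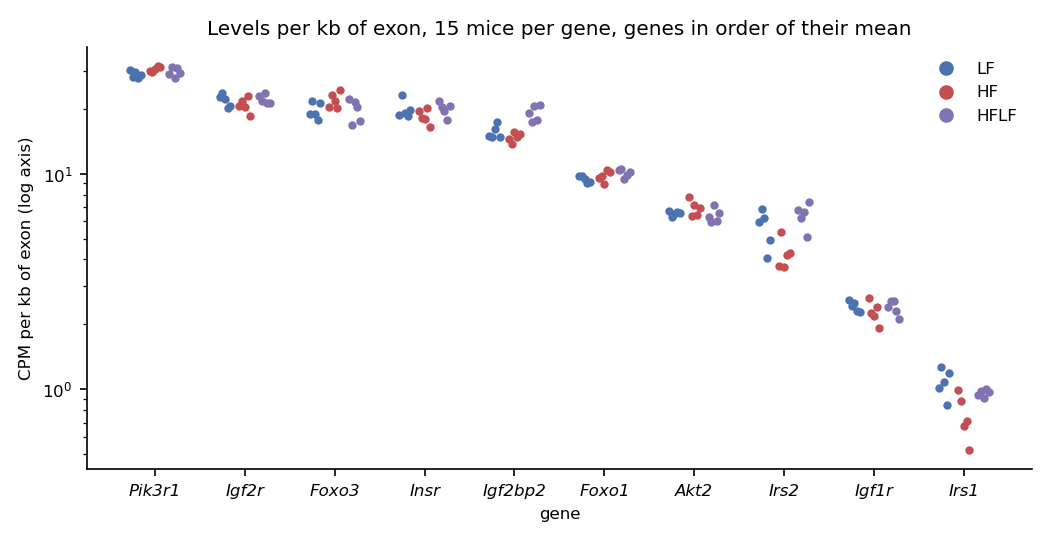
Level of each gene in CPM per kb of exon (vertical axis, logarithmic) in each of the 15 mice, coloured by diet group, with genes in the order of their mean. Levels run from 29.7 for Pik3r1 to 0.934 for Irs1, and within a gene the 3 groups lie close together compared with the distance between the ends of the order.

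Within their families the 10 genes took unequal shares of the summed level per kb. Insr made up 80.5% ± 2.72 (SD, n = 5 control mice) of the insulin receptor family, Igf1r 9.89% ± 0.900 and Insrr, a receptor relative without a known insulin ligand, 9.62% ± 2.42. Irs2 made up 83.7% ± 2.06 of the IRS family in control mice, 84.8% ± 3.68 in obese mice and 86.8% ± 1.96 in formerly obese mice, and Irs1 the rest. Irs3 and Irs4 had 0 counts in all 15 libraries, which allows up to 3 counts, or 0.132 to 0.197 CPM, per library. Akt2 was a minor kinase gene beside Akt1, at 7.74% ± 0.195 against 92.0% ± 0.186 in control mice. Of the PI 3-kinase regulatory subunits, Pik3r1 took 45.8% ± 2.33, Pik3r2 31.6% ± 1.80 and Pik3r3 22.7% ± 1.75 in control mice. In the FoxO family of control mice Foxo3 took 40.6% ± 1.07, Foxo4 38.9% ± 0.962 and Foxo1 19.5% ± 1.16. This order rests on the shorter length of Foxo3, since with all RefSeq exon bases Foxo4 took 51.0% ± 1.26, Foxo1 25.6% ± 1.40 and Foxo3 22.3% ± 0.769. The shares of Irs2 and Akt2 likewise use the shorter lengths. Igf2bp2 made up 99.3% ± 0.288 of its family in control mice and 99.1% ± 0.189 in formerly obese mice. These shares were not tested between groups.

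Of 89 other genes of the pathway, listed by role, 74 were tested. In obese against control mice 1 was called, lower, which is 1.35% of the list against 1.58% of all tested genes. In formerly obese against control mice 0 were called in edgeR and 0 in DESeq2, where 3.72% of all tested genes were called in edgeR, and 15 of the 74 (20.3%) had an unadjusted p under 0.05, against 16.7% of all tested genes. In formerly obese against obese mice 2 were called, both lower, which is 2.70% of the list against 2.65% of all tested genes. The median log2 folds of the list, 0.02, -0.01 and 0.00, were near those of all tested genes.

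The called gene in obese mice was Pck1, which encodes the enzyme that commits carbon to glucose synthesis and is a known FoxO target. Pck1 stood at 276 to 421 CPM in LF, 177 to 278 CPM in HF and 199.9 to 316 CPM in HFLF mice. Only 1 obese mouse, at 277.9 CPM, lay above the lowest control mouse, at 276.5 CPM. Pck1 fell by 0.62 on the log2 scale in obese mice (SE 0.13; edgeR adjusted p = 0.0786), and in formerly obese mice it stood at -0.34 (SE 0.13; edgeR adjusted p = 0.201), which did not pass. The other 15 tested FoxO targets were not called in any comparison of the fit reported. Among them Txnip, an inhibitor of thioredoxin and the most abundant of the list per kb, had log2 folds of -0.15, -0.23 and -0.08. Txnip was called in 2 of 25 alternative fits for formerly obese against control mice. Cdkn1a, a cell cycle inhibitor, had -0.03, -0.08 and -0.04.

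Against obese mice, the formerly obese mice were lower in Akt1s1, which encodes PRAS40, an Akt substrate that holds mTORC1 back, and in Socs1, a cytokine-induced brake on receptor signalling. Akt1s1 stood at 44.0 to 49.6 CPM in obese mice and 31.7 to 41.7 CPM in formerly obese mice, without overlap. It was lower by a log2 fold of -0.32 (SE 0.07; edgeR adjusted p = 0.0541), but not called once the GC trend of the libraries was removed (log2 fold -0.23). Socs1 stood at 1.18 to 2.33 CPM in obese mice and 0.752 to 1.63 CPM in formerly obese mice, at most 37 counts per library. It was lower by -0.65 (SE 0.22; edgeR adjusted p = 0.194), and the call was lost in 19 of 25 alternative fits. Phlpp2, a phosphatase that switches Akt off, was higher in formerly obese than in control mice by 0.25 (SE 0.06; edgeR adjusted p = 0.0268) with no overlap between the groups, and missed the call only by its fold, which is under 1.2.

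The other named genes of the pathway were not called in the fit of all 15 libraries. Of the alternative fits, Igfbp6 was called in 3 of 24 for obese and 2 of 24 for formerly obese against control mice. Pik3r2 was called in 2 of 25 for formerly obese against obese mice. Ins1 and Ins2, the insulin genes, had 0 counts in all libraries, Igf1 at most 10 counts and Igf2 at most 39, so ligand transcripts were not detectable or low at this depth. Among IGF-binding proteins, Igfbp6 had log2 folds of 1.34 and 1.18 against control mice (edgeR adjusted p = 0.391 and 0.292) on at most 40 counts, and Igfbp4 had 0.29 and -0.18. Of the receptor relatives, M6pr, which shares the lysosomal sorting role of Igf2r, had log2 folds of -0.02 and -0.06 against control mice, and Insrr -0.30 and -0.28. The 8 tested adaptors that bind the receptors or IRS proteins all lay between -0.14 and 0.07 in all 3 comparisons, among them Crk (0.03, 0.03 and 0.00) and Grb2 (-0.03, 0.03 and 0.06). The brakes Ptpn1, a phosphatase of the insulin receptor, and Enpp1 had -0.20 (edgeR adjusted p = 0.1) and -0.02 in formerly obese against obese mice.

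Around PI 3-kinase, Pik3r2 stood at -0.24 (edgeR adjusted p = 0.133) and Pik3r3 at 0.03 in formerly obese against obese mice, and the lipid phosphatase gene Inppl1 at -0.04. Akt1, the main Akt gene here, had log2 folds of -0.01, -0.09 and -0.08 in the 3 comparisons, and Mapkap1, an mTORC2 subunit, had 0.04, -0.01 and -0.06. Phlpp1 had -0.07, -0.12 and -0.04. Of 17 tested Akt substrates and mTORC1 genes, Akt1s1 was the 1 called, while Eif4ebp2, a translation repressor, had -0.11, -0.07 and 0.04, and Gsk3a had 0.01, -0.02 and -0.03. Foxo4 had -0.07, -0.12 and -0.05, and Foxo6 had 0.24, -0.12 and -0.36 at about 1 CPM. Igf2bp1, the tested relative of Igf2bp2, had -0.10, 0.64 and 0.74 (edgeR adjusted p = 0.421 for the last) on at most 32 counts per library.

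**Figure D4:**
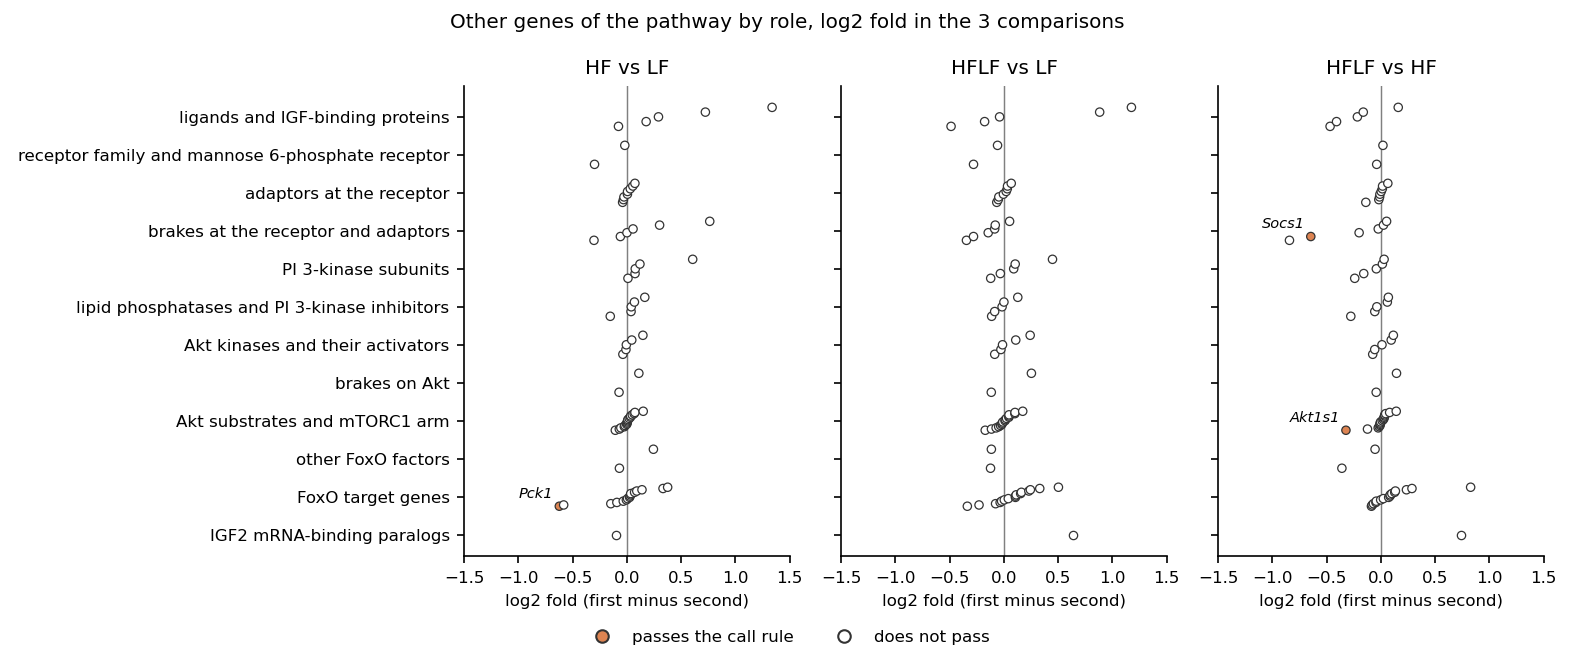
Log2 fold (horizontal axis, first group minus second) of each of the 74 tested other genes of the pathway, 1 point per gene, by role (rows) in the 3 comparisons, with filled and named points for genes past the call rule. Pck1 at -0.62, Socs1 at -0.65 and Akt1s1 at -0.32 are filled, and most other genes lie near 0.

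For 9 of the 10 genes, the tested gene with the most similar profile was taken as the one with the highest Spearman correlation of log2 CPM over the 15 libraries, which share the diet groups and the scaling. These were Chp1 for Igf2bp2 (rho 0.91), Naaladl1 for Pik3r1 (0.91), Rap1gap2 for Irs2 (0.90), Snhg6 for Irs1 (0.90), Csnk2a1 for Foxo1 (0.89), Gtpbp6 for Foxo3 (0.88), Rcc1 for Akt2 (0.85), Gm608 for Insr (0.85) and Nr2c2 for Igf2r (0.82). Each was the highest among 12961 genes, so a high value was bound to occur. Chp1 stood at 471 ± 32.5 CPM in LF, 453 ± 33.6 in HF and 551 ± 30.8 in HFLF mice (SD, n = 5 each). Among the 10 genes themselves, deviations from the group means were compared over 45 pairs with Pearson's r across the same 15 libraries. The median r was -0.04, with 6 pairs over 0.5, led by Igf1r with Igf2r (0.63) and Insr with Igf2r (0.62). Under -0.5 were 2 pairs, Irs1 with Igf2bp2 (-0.58) and Akt2 with Foxo1 (-0.54). The share of all gene pairs past these bounds was not computed, so the counts are not read as a trait of the pathway.

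DNA methylation was available as a list of 8199 differentially methylated regions (DMRs) between obese and control mice, 4123 with more methylation in obese mice (hyper) and 4076 with less (hypo), without values per mouse. Within 10 kb of the 10 genes there were 6 DMRs, all in introns of 4 genes. Igf1r held 3 (1 hyper and 2 hypo), Irs1 held 1 hypo DMR, and Irs2 and Pik3r1 held 1 hyper DMR each. Thus 4 of 10 genes had a DMR within 10 kb, against 20.6% of all tested genes, and 4 of 10 within 50 kb, against 43.8%, but the 10 genes are long, with a median span of 87379 bp against 21304 bp for all tested genes, and all 10 were over that median. The other 6 genes had none within 10 kb.

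The DMRs are printed because they are the sites at which methylation differed in these genes. Each line gives the region with 20 bases on either side from the plus strand of GRCm38, 5′ to 3′, with the CpGs of the region in capitals.
Igf1r, intron 1 of 20, hyper, chr7:67958146-67958160: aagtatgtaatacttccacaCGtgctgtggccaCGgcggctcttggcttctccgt
Igf1r, intron 2 of 20, hypo, chr7:68144298-68144338: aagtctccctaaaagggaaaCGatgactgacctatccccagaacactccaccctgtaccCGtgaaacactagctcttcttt
Igf1r, intron 3 of 20, hypo, chr7:68168168-68168175: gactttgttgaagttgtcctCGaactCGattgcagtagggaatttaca
Irs1, intron 1 of 1, hypo, chr1:82256617-82256623: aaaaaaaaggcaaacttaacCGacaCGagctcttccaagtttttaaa
Irs2, intron 1 of 1, hyper, chr8:11003897-11003961: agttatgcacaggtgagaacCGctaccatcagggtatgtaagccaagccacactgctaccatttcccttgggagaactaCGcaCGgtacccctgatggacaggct
Pik3r1, intron 2 of 15, hyper, chr13:101734417-101734556: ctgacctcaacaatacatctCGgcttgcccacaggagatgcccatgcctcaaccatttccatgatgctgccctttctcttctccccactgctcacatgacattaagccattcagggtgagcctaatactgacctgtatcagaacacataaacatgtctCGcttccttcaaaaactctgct
The regions were 7 to 140 bp long and held 2 CpGs each, apart from the 3 of Irs2. The DMR of Irs2 began 4968 bp from the start of the transcript, just past the first exon, and that of Igf1r in intron 1 began 5889 bp from the start. The others lay 33.7 kb (Pik3r1), 34.8 kb (Irs1), 192 kb and 215.9 kb (both Igf1r) from the start. Irs1 and Irs2, both with a lower mean level in obese mice, held DMRs of opposite direction. The difference in RNA level between obese and control mice passed the call rule in Irs1, but not in Irs2, Igf1r or Pik3r1. Whether methylation at these sites bears on expression was not tested.

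**Figure D5:**
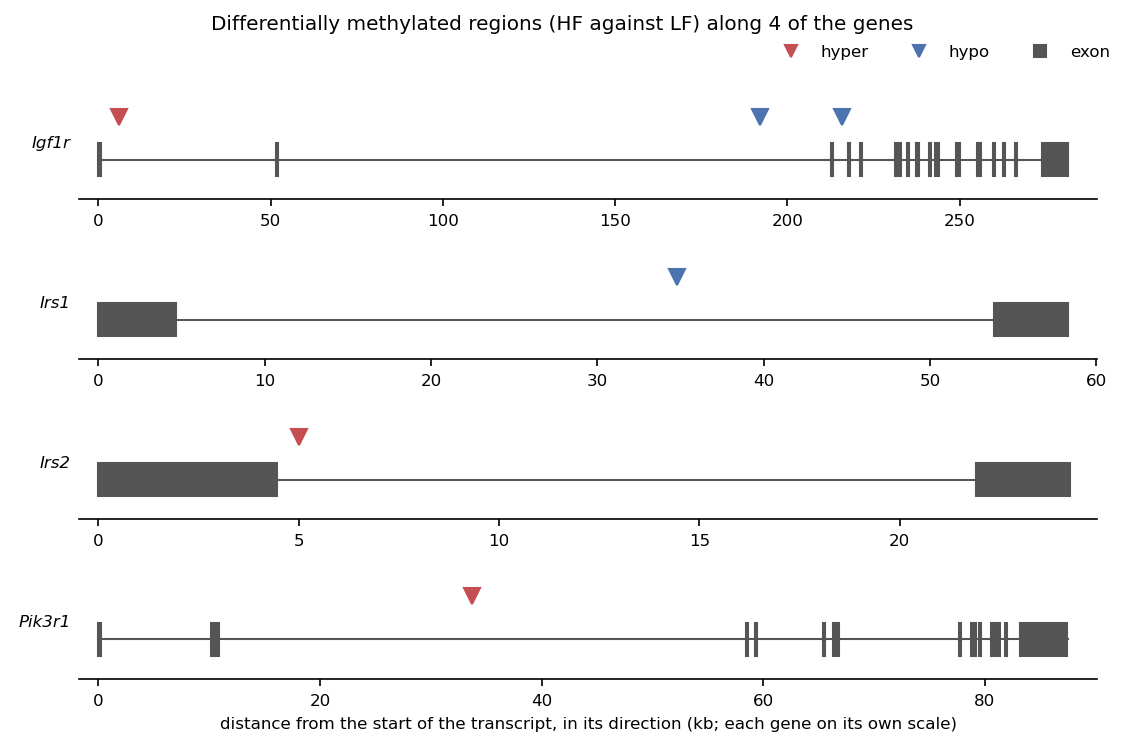
Position of the DMRs between obese and control mice (triangles, red for hyper and blue for hypo) along Igf1r, Irs1, Irs2 and Pik3r1, in kb from the start of the transcript (horizontal axis, each gene on its own scale), with exons as boxes. All 6 DMRs lie in introns, those of Irs2 and of Igf1r intron 1 within 5.0 and 5.9 kb of the start.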

How the data were processed

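The authors mapped paired reads of stranded mRNA libraries to mm10 with TopHat and deposited counts per gene from HTSeq-count. The annotation release and strand setting are not given in the sources used here. Counts were fitted in R 4.3.3 with edgeR 4.0.16 (filterByExpr, TMM scaling, quasi-likelihood F-test, group as the only term, all 15 libraries), and p-values were adjusted over all 12961 tested genes. CPM values of a gene are its counts relative to the summed counts of all tested genes in its library, after TMM scaling. Sums of markers are relative to all counts of the library, after TMM scaling. The limits for a count of 0 are relative to all counts of the library without TMM scaling. Replicates were separately numbered mice. In simulated data for obese against control mice (12895 genes), 82 of 100 genes changed by a log2 fold of 0.5 and 94 of 100 changed by 1 were called, with 43 false calls. DESeq2 1.42.0 was an alternative.

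The 10 genes, the pathway list and the markers were chosen with earlier results of these data known. Named from the pathway list are called genes and the 2 with the highest level per kb in each role, of all DMRs those within 10 kb, and for each of the 10 genes its most similar profile. A few of the named results are not reported here. Other genes were named after their values were seen (Ins1, Ins2, Igf1, Igf2, Irs3 and Irs4). The DMRs are the authors' test on 5 obese and 5 control mice. The deposited DESeq2 tables of fold changes and p-values were not used. Bisulfite amplicons were not used, as 0 of their CpGs lay within 50 kb of the 10 genes.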

Additional observations from a re-analysis of the deposited data

Results flagged for a closer look

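In 1 of 39 groups of 5 mice that were examined for an outlying value (the 10 genes and the called pathway genes in 3 diet groups), the value of 1 mouse stood apart by Dixon's criterion. Control replicate 2 had 218 CPM of Insr, while the other 4 control mice lay between 174 and 185 CPM, and the gap took 0.737 of the range of the group, above the critical value. Chance flags about 1 in 20 such groups. Without this mouse the log2 fold of Insr in obese against control mice was -0.05 in place of -0.11.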

How the results depend on the processing

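With an adjusted p under 0.05 and no fold cutoff, called genes numbered 16, 282 and 25 for obese against control, formerly obese against control and formerly obese against obese mice, those of the 10 genes 0, 1 and 1, and those of the pathway list 0, 1 and 0. The same order holds below. In obese against control mice 2 of the 10 genes were called with DESeq2 and with the GC trend removed (Irs2 beside Irs1). Of the pathway genes in formerly obese against obese mice, 1 was called with DESeq2, with no filter on low counts and with only the 2 groups compared, and 0 with the GC trend removed. Leaving out each library in turn gave 40 to 331, 362 to 660 and 167 to 400 called genes, 0 to 2, 0 to 1 and 2 to 3 of the 10 genes, and 1 to 2, 0 to 3 and 1 to 3 pathway genes. The lowest counts of all genes came without obese replicate 3 (40) and formerly obese replicate 5 (167). Of the 30 log2 folds of the 10 genes 4 were called, and of their 100 values under the alternatives 94 stayed called and 6 did not, 5 of these for Irs1 in obese against control mice. Of the 650 values of the other 26 folds 7 became called, 0 values reversed, and 24 values that were not called in either fit changed sign. Within 50 kb in place of 10 kb there were 11 DMRs, at 4 of the 10 genes against 43.8% of all tested genes. The causes were not tested, and all fits reuse the libraries on which the 10 genes were selected. Lengths inside the count table's spans and the use of all RefSeq exon bases were set after seeing the data.

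The replicate numbers were not treated as pairs. Of 15 same-numbered pairs 5 correlated over 0.1 (-0.23 to 0.33), and 6 of 15 libraries correlated best with their own number. These counts were not set against a chance rate, so whether the numbers mark a batch was not tested. With the replicate block, 2 of the 10 genes and 2 pathway genes were called in obese against control mice and 1 pathway gene in formerly obese against control mice. The block with the GC trend removed gave 2, 2 and 1 for these, and 1 pathway gene in formerly obese against obese mice. With 80 to 188 counts of Irs1 per library, small differences in it were not detectable, and Socs1, Igfbp6, Foxo6 and Igf2bp1 rested on fewer.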
